A study of Drosophila melanogaster with 2 samples.

Results

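Of 131853 candidate peaks ranked on the pooled chromatin immunoprecipitation sequencing (ChIP-seq) data for CG4404, 4097 passed at 0.01 or less on the irreproducible discovery rate (IDR), a measure of how likely a peak is to fail to recur when peaks are called again, and 205 of those 4097 had no matching row in the pooled thresholded list of 3892 peaks used here. These 205 peaks, called absent peaks below, are described here against the 3892 thresholded peaks and all ranked peaks. They were chosen by the values of the same list, a deposited −log10 IDR of 2 or more and the lack of a row with the same chromosome, start, end and signal value, so their IDR and their absence are not findings. None of the 205 overlapped a thresholded peak by even 1 bp, and they merged into 190 separate regions. Passing peaks were 3.11% of the ranked peaks, and absent peaks were 5.0% of the passing ones (95% Wilson interval 4.38 to 5.71%). The labels and headers do not say what separates the lists, and no reason for it was tested.

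The data came from whole Drosophila melanogaster embryos of 0 to 4 hours from a transgenic CG4404-GFP strain, which expresses CG4404 fused to enhanced green fluorescent protein, and the precipitation used an antibody against the tag. There was 1 group with 2 biological replicates and no other genotype or treatment. Libraries of an untagged or input control were not analysed here. Because whole embryos were used, a peak averages over all of their nuclei, and the deposited files were peak lists, so the read depth behind each peak was not known.

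CG4404 belongs to the MADF-BESS family, whose MADF domain resembles a Myb DNA-binding fold and whose best known member, Adf1, binds promoters of developmental genes. In an embryo of this age the zygotic genome is switched on, and many transcription factors bind at promoters and in introns. The fly genome also holds long repeated stretches, the satellites, ribosomal RNA genes and old transposons of the pericentromeric heterochromatin, and the scaffolds that could not be placed on an arm are drawn largely from them. A short read from such a repeat can match many places, so a peak there can stand for a repeat family rather than for a single site.

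The absent peaks on the chromosome arms lay in both kinds of sequence, single-copy and repeated. The first 4 sequences are summits at single-copy gene loci with 50 bases on either side. They are examples picked from the 25 strongest arm members, not the 4 strongest, and each holds a marked word. The word TATAAA is in capitals where either strand has it, and likewise TAATTA and CGATA. Windows of the same length at Lk6, larp and trx, with pooled signal values of 1296, 941 and 510, are not shown and hold none of these words. The last 4 are summits in repeated sequence with 100 bases on either side, with every base that lies in a 50-base word found more than once in the genome in capitals. All are from the plus strand of the RefSeq copy of the dm6 assembly.
ush intron, near cbt, chr2L:481046-481146: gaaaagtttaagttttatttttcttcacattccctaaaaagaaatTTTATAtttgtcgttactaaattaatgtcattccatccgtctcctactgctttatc
between CG18428 and eIF4EHP, chr3R:24109120-24109220: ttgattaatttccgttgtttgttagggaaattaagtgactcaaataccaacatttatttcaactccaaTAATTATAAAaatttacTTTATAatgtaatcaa
between Sirt6 and pont, chr3R:10261934-10262034: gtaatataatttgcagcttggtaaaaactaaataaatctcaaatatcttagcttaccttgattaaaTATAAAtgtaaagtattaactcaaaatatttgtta
Kdm2 intron, chr3R:9055845-9055945: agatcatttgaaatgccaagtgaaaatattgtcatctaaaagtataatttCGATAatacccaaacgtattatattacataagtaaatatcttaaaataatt
proximal X, strongest there, chrX:23377830-23378030: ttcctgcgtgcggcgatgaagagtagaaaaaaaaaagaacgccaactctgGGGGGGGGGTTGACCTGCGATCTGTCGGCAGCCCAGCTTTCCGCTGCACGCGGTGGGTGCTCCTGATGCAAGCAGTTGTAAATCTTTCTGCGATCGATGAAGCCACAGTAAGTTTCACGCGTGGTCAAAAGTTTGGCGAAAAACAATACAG
proximal X, chrX:23402872-23403072: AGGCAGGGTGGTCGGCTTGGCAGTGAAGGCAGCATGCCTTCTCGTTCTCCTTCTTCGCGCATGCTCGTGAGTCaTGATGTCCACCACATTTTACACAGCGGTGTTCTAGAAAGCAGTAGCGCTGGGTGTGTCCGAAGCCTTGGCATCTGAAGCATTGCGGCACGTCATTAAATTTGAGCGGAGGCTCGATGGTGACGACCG
end of X, chrX:23532195-23532395: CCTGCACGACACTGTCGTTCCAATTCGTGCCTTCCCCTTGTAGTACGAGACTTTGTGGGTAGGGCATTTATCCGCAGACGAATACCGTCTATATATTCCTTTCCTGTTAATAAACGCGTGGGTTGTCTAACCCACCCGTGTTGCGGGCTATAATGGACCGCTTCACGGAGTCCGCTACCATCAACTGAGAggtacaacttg
proximal 3R, chr3R:265746-265946: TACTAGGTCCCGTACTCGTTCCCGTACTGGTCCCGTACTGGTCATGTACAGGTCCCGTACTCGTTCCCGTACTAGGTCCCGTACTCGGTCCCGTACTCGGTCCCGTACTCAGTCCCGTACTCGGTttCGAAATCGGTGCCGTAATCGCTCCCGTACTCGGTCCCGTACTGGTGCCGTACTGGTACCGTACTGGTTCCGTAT

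The gene-locus windows had 0% of their 50-base words repeated elsewhere, against 67.1%, 67.1%, 92.8% and 66.4% in the last 4. The window between CG18428 and eIF4EHP holds a TAATTA word overlapping a TATAAA word, and a second TATAAA match on the other strand. The window at the end of X shares 70.4% of its words with the separate ribosomal DNA scaffold of the assembly. The proximal 3R window repeats the letters CCGTA 15 times.

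Absent peaks were unevenly spread over the genome. All 67 passing peaks on unplaced scaffolds and all 25 on scaffolds assigned to Y were absent, whereas 0 of the 57 on scaffolds assigned to X were. On the arms, 52 of 920 passing peaks on 3R were absent (5.65%), 32 of 781 on X (4.10%) and 24 of 729 on 2L (3.29%), against 3 of 848 on 3L (0.354%) and 2 of 665 on 2R (0.301%). None of the 5 passing peaks on arm Y was absent, and arm 4 had 0 passing peaks. In all, 113 absent peaks lay on arms and 92 off them. The scaffolds could not be matched to the reference by name, so sequence and gene annotation below cover the 113 only.

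**Figure D1:**
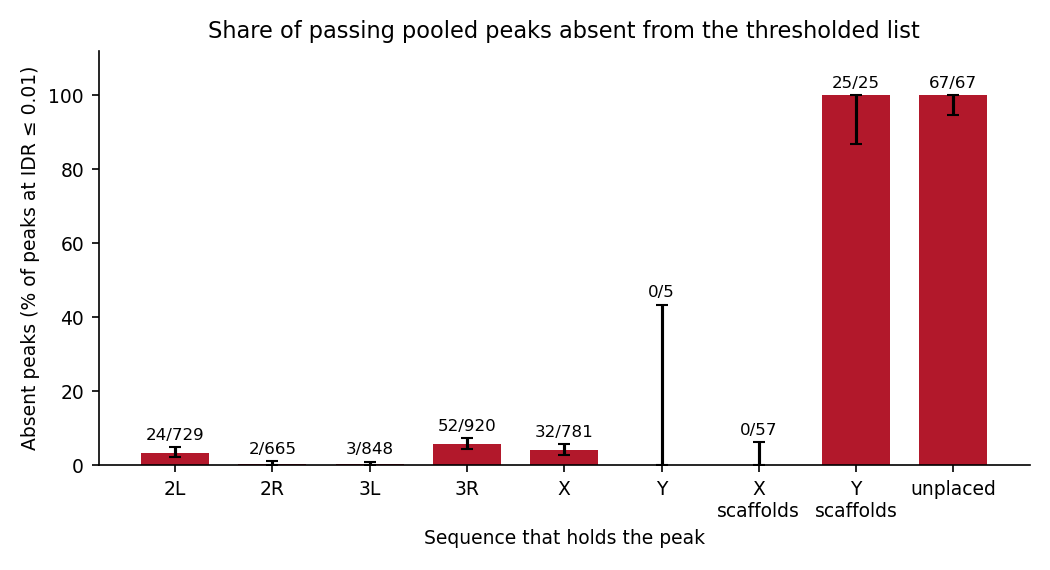
Share of passing pooled peaks (IDR of 0.01 or less) absent from the thresholded list, by the sequence that holds them. Bars give the percentage, whiskers the 95% Wilson interval (counting error only) and the labels absent over passing peaks; unplaced and Y scaffolds reach 100% while X scaffolds stay at 0%.

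The same places recurred in the other lists. In the list ranked on the pair of replicates, where 3.02% of the ranked peaks passed, 213 of the passing peaks were absent from its thresholded list. In the list of replicate 1, where 2.89% passed, 129 were absent, and in that of replicate 2, where 2.24% passed, 140 were. In each of these 3 lists all passing peaks on unplaced and Y scaffolds were absent and none on X scaffolds was. Of the absent peaks of each list, 82.2%, 93.0% and 90.7% in that order lay over an absent peak of the pooled list. No thresholded peak of any of the 3 lists overlapped a pooled absent peak. The 1 case the other way was a peak of replicate 1 on 3L, near isoQC, which was absent there but lay over a thresholded pooled peak. These lists were made from the same 2 libraries, so they are not independent samples.

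Absent peaks spanned nearly the whole signal range of the data. Their signal value, as the authors' peak caller gave it and in an unnamed scale, ran from 2.44 to 2638 with a median of 98.6, against 2.07 to 2755 and 117 for thresholded peaks and a median of 20.4 for all ranked peaks. Of the 1010 passing peaks that reached 200, 29 were absent, a smaller share than the 5.0% among all passing peaks. Of the first 100 passing peaks by rank, 6 were absent, close to that share. Of the 13 absent peaks under 40, 12 overlapped another absent peak. At the IDR threshold, the absent peak nearest to it had a −log10 IDR of 2.0006 (chrX:22373468-22373851, signal 79.0), and the closest ranked peak below the threshold had 1.9995 (chr3R:29088947-29089330, signal 68.1).

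The absent peaks were also looked up in the list of each replicate. The pool was made from these same 2 libraries, so some recurrence is built in by the choice of peaks. A passing peak of replicate 1 lay over 122 of the 205 (59.5%, Wilson interval 52.7 to 66.0%), against 71.5% of thresholded peaks, and a passing peak of replicate 2 over 131 (63.9%), against 62.8% of thresholded peaks. Both replicates had one at 92 absent peaks (44.9%), against 53.0% of thresholded peaks, and neither had one at 44 (21.5%), against 18.7%.

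The balance between the replicates differed by place. Within 50 kb of a protein-coding transcription start site (TSS), 48 of 66 absent peaks had the higher signal value in replicate 1 (72.7%, 61.0 to 82.0%), close to the 65.2% of the thresholded peaks there. On unplaced scaffolds only 18 of the 65 absent peaks ranked in both replicates did (27.7%, 18.3 to 39.6%), and on Y scaffolds 8 of 25 (32.0%, 17.2 to 51.6%). Thresholded peaks on X scaffolds showed the same side, with 13 of 57 higher in replicate 1 (22.8%, 13.8 to 35.2%). Arm peaks beyond 50 kb from a protein-coding TSS lay between these places. Of the absent ones there, 23 of 47 were higher in replicate 1 (48.9%, 35.3 to 62.8%), and of the thresholded ones 24 of 55 (43.6%). Median signal values on unplaced scaffolds were 42.2 in replicate 1 and 51.1 in replicate 2. These levels are set across the separate lists of the replicates, whose scales may differ, so only the contrast between places can be read. Where absent peaks overlap each other, the same peak of a replicate can stand behind both.

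**Figure D2:**
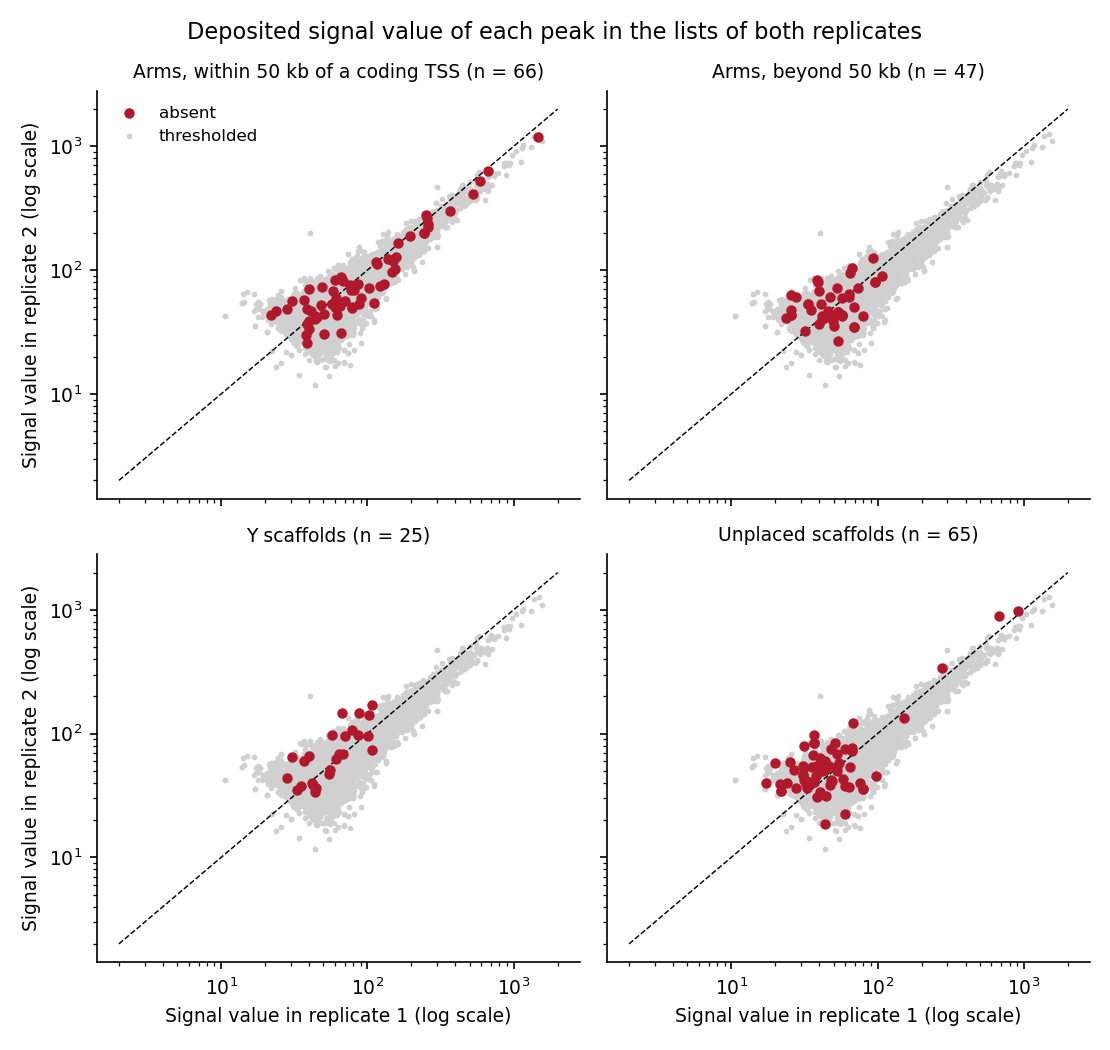
Deposited signal value of each absent peak (red) in the lists of replicate 1 (x axis) and replicate 2 (y axis), both on log scales, in 4 panels by place, over all thresholded peaks (grey). The dashed line marks equal values; red points lie mostly below it within 50 kb of a protein-coding TSS (48 of 66) and less often so on unplaced scaffolds (18 of 65).

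On the arms the absent peaks fell into 2 kinds by their distance from genes, a division made after seeing the values. Of the 113, 66 lay within 50 kb of a protein-coding TSS and 47 beyond it; the farthest of the first kind lay at 42347 bp and the nearest of the second at 55380 bp. Beyond 50 kb, 47 of 106 passing peaks were absent (44.3%, 35.2 to 53.8%), against 66 of 3842 within it (1.72%, 1.35 to 2.18%). By arm, 32 of 37 such distant peaks on X were absent, 6 of 10 on 2L and 9 of 29 on 3R, against 0 of 19 on 3L and 0 of 9 on 2R. On X every absent peak was distant, and 0 of the 744 passing peaks near genes there was absent.

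Over all arms, 34 of 113 absent summits were within 500 bp of a TSS (30.1%), against 41.5% of thresholded and 14.2% of ranked ones, and all 34 were among the gene-near peaks. The gene-near absent peaks lay mostly at promoters and in introns of single-copy sequence. Of the 66, the 34 at promoters made up 51.5% (39.7 to 63.2%), against 42.2% of the thresholded peaks and 14.8% of the ranked peaks within the same 50 kb. Another 26 were in introns (39.4%), against 33.3% of thresholded peaks, and 6 were intergenic (9.09%), against 19%. None was in an untranslated region, coding exon or other exon, and 0 of 66 allows a share of up to 4.55% by 3 counts of the total (Wilson upper limit 5.5%). Of thresholded peaks, 0.503% were in 5' untranslated regions, 3.42% in coding exons, 0.689% in 3' untranslated regions and 0.98% in other exons. Few such peaks were therefore to be looked for among 66. Their median GC content was 36.3%, against 35.3% for thresholded and 47.8% for ranked peaks. Their median signal value was 133, against 119 for thresholded peaks, and 0 of the 66 lay in multi-copy sequence, against 0.238%. Multi-copy means here that at least 50% of the 50-base words in the window of 100 bp on either side of the summit occur more than once in the genome on either strand. The 0 depends on this cut. Some repeated word was in 2 of the 66 windows (3.03%, 0.835 to 10.4%), with at most 48.7% of the words repeated. The shares of thresholded and ranked peaks with one were 0.477% and 2.31%.

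Short words known as binding sites in fly promoters were counted in the same windows. TATAAA, the core promoter word, was in 18 of the 66 gene-near absent windows (27.3%, 18 to 39.0%), against 35.1% of thresholded and 13.6% of ranked windows. The GATA word (GATAA or GATAG after A or T) was in 30.3% (20.6 to 42.2%), against 36% and 23.3%. TAATTA, a core that homeodomains bind, was in 15.2%, against 17.3% and 9.02%, and CGATA, the core of BEAF-32 sites, in 33.3%, against 25.2% and 19.4%. TATCGATA, the DNA replication-related element, contains CGATA and was in 3.03%, against 2.25% and 0.459%. GAGAG, bound by GAGA factor, was in 21.2%, against 21.7% and 23.3%, and CAGGTA, bound by the pioneer factor Zelda, in 1.52%, against 4.13% and 4.57%. For each of these 7 words the share of thresholded windows fell inside the interval of the absent ones, and for 4 of them (the GATA, homeodomain, GAGA and Zelda words) the share of ranked windows did too.

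**Figure D3:**
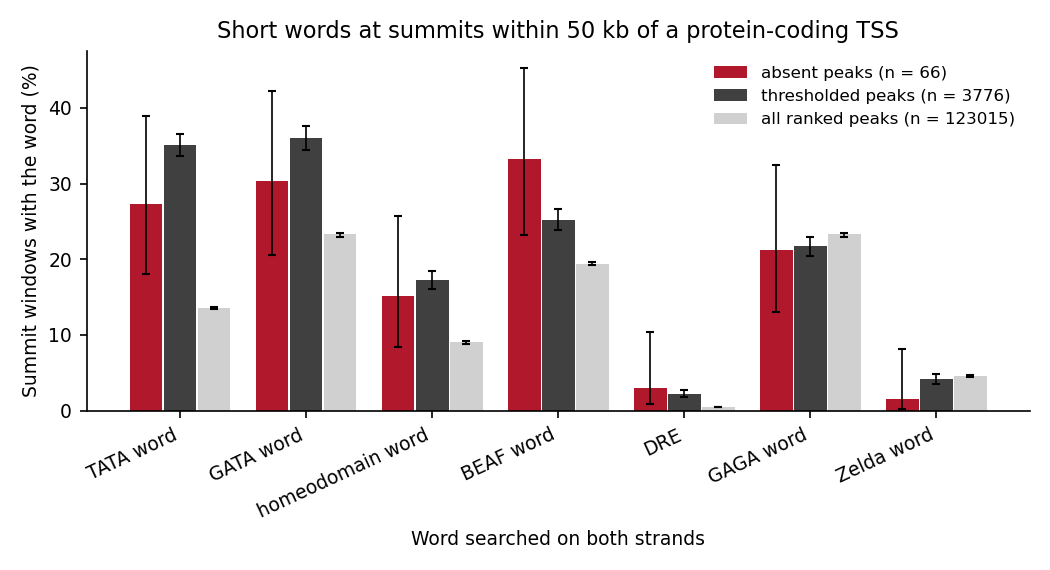
Share of summit windows (100 bp on either side) within 50 kb of a protein-coding TSS that hold each of 7 short words on either strand, in absent (n = 66), thresholded (n = 3776) and all ranked peaks (n = 123015), with 95% Wilson intervals (counting error only). The thresholded share lies inside the absent peaks' interval for every word and the ranked share for 4 of them; TATAAA stands at 27.3%, 35.1% and 13.6%.

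The strongest absent peak was at the ush-cbt locus on 2L. ush encodes a FOG-family cofactor of GATA factors and cbt a zinc-finger transcription factor. The peak chr2L:480895-481284, in a ush intron 1408 bp upstream of cbt, had a pooled signal value of 2638, with 1460 in replicate 1 and 1189 in replicate 2, and ranked 3 among the 4097 passing peaks. A neighbour at the cbt promoter, 395 bp from its TSS, had 478 pooled, 261 in replicate 1 and 223 in replicate 2. The locus held 6 absent peaks between positions 471099 and 482153, 4 of them beside these at the CG4297 promoter or in the ush intron, with signal values from 4.40 to 165. No thresholded summit lay among them. The nearest thresholded summits lay 399 bp to the left and 8111 bp to the right of this stretch.

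The 4 strongest absent peaks of 3R were at Lk6, at CG18428 and eIF4EHP, at larp and at Sirt6 and pont. An intron of Lk6, the kinase that phosphorylates eIF4E, had 1296 pooled, 673 in replicate 1 and 629 in replicate 2 (chr3R:11760887-11761209). The shared upstream region of CG18428 and eIF4EHP, the cap-binding repressor of maternal mRNA translation, had 1102, 590 and 524 (chr3R:24108991-24109372). A promoter of larp, an RNA-binding protein gene, had 941, 528 and 416 (chr3R:28326433-28326760). Sirt6, a deacetylase gene, and pont, an ATPase of the Ino80 and Tip60 complexes, shared a peak with 670, 366 and 303 (chr3R:10261846-10262142). These 4 and the ush peak were each higher in replicate 1, and all 5 passed in both replicates.

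Further 3R peaks sat in introns of Alh, trx, tara and Kdm2. Alh, a PHD-finger gene, had 536 pooled, with 251 in replicate 1 and 277 in replicate 2. trx, the Trithorax histone methyltransferase gene, had 510, 256 and 263. tara, a gene that interacts with the Trithorax group, had 495, 260 and 234 at its strongest intron peak, 234, 115 and 117 at the next, and 383, 195 and 188 at a peak 1144 bp outside it. Kdm2, a histone demethylase gene, had 282, 156 and 127 at its strongest peak and 260, 154 and 102 at the next. The Kdm2 block ran from 9047893 to 9057764 with 6 absent peaks, 1 of them at the promoter of Rel, which encodes the NF-κB factor Relish (95.5 pooled). On 2L, 4 absent peaks lay beside the opsin gene Rh5, the strongest with 445, 242 and 199. In these loci every replicate value stood above 100 at the peaks named, apart from Rel.

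**Figure D4:**
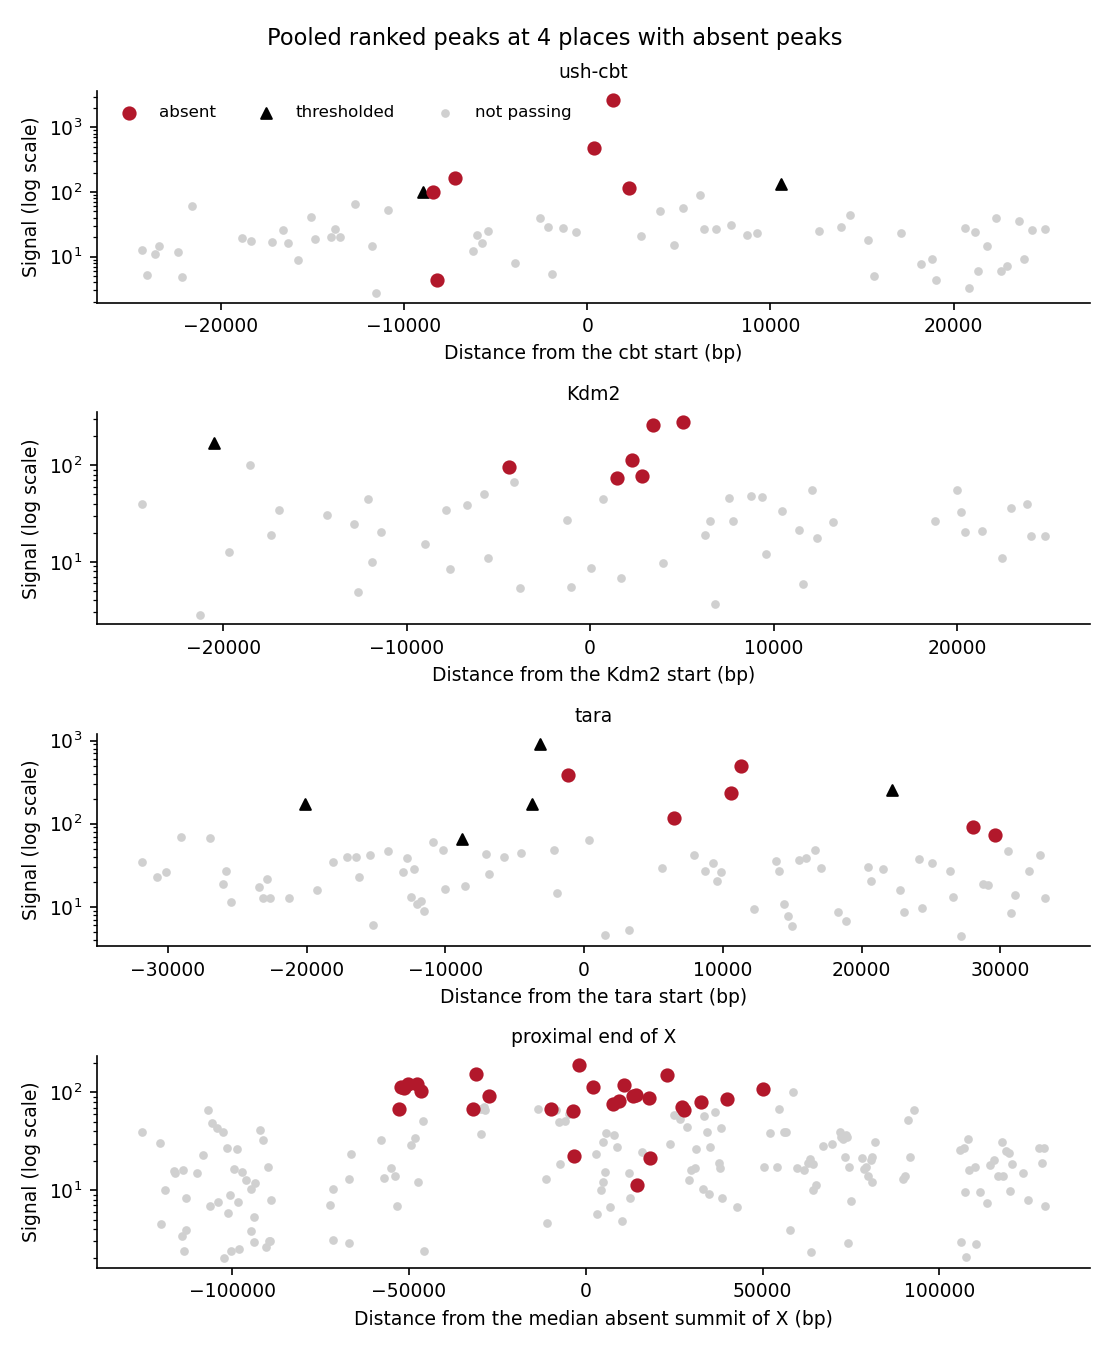
Signal value (log scale) of every pooled ranked peak against distance in bp from the start of cbt, Kdm2 or tara, or from the median absent summit of X. Red points are absent peaks, black triangles thresholded peaks and grey points peaks that did not pass; absent peaks sit together in runs of 6 at ush-cbt and Kdm2, and the X window holds no thresholded peak.

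Many absent peaks lay near another absent peak, though no matching share is given here for thresholded or ranked peaks. Joined where neighbours were within 10 kb, the 205 formed 118 blocks, and on the arms 85 of the 113 lay in 23 blocks of 2 or more. None of the 118 blocks had a thresholded summit inside. For the 79 blocks of 1 member this follows from the lack of any overlap with a thresholded peak. Off the arms, the scaffolds that hold these blocks had no thresholded peak at all. The 51 arm blocks held 217 ranked summits, the 113 absent ones among them. Only 3.11% of all ranked peaks passed, so few thresholded summits could be looked for among the rest. Thresholded peaks could still be close. The nearest thresholded summit was 591 bp from an absent one at CG4297, the median distance was 25569 bp, and 8 arm members had one within 2000 bp.

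The promoters with an absent peak belonged to 38 protein-coding genes, of 13968 on the arms, and 36 of those had no thresholded summit within 500 bp of any TSS. The exceptions were larp and Pgk, the phosphoglycerate kinase gene, which had both. Most genes lack a thresholded summit there, since only 1984 of the 13968 had one, so the 36 do not stand out by this. Of the 36, 27 were on 3R. They included the small GTPase gene Ras85D (signal value 164, shared with Rlb1), the Hippo pathway gene kibra (154), the V-ATPase subunit gene Vha55 (139, shared with Snx3), the general transcription factor gene TfIIA-S (126), the Brahma complex gene mor (117, shared with Hel89B), the insulin receptor gene InR (96.1) and the ribosomal protein gene RpL13A (82.6, shared with Dph4 and Spec2). The polyubiquitin gene Ubi-p63E on 3L had 111, and crp, which encodes a bHLH factor, had 154 on 2L. A list of genes bound within 500 bp drawn from the thresholded peaks holds 1984 protein-coding genes without these 36.

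The 47 distant peaks, 18 of which formed 1 block on X, lay mostly in repeated sequence. Their windows held a repeated 50-base word in 41 cases (87.2%, 74.8 to 94.0%), against 34 of 59 distant thresholded peaks (57.6%, 44.9 to 69.4%), and 22 of 47 counted as multi-copy (46.8%), against 15 of 59 (25.4%) and 33.6% of the distant ranked peaks. Their median GC content was 55.2%, against 50.7% for distant thresholded peaks. Their signal values had a median of 91.1 and ran from 2.44 to 228, against 4.40 to 2638 for the gene-near ones. Of the 47, 45 were intergenic (95.7%, 85.8 to 98.8%), against 28 of the 59 distant thresholded peaks (47.5%). TATAAA was in 4 of the 47 windows (8.51%, 3.36 to 19.9%), against 15.3% of thresholded and 15.2% of ranked windows at that distance. TAATTA was in 0 of 47, which allows up to 6.38% by 3 counts of the total (Wilson upper limit 7.56%), against 6.78% and 6.39%. Neither of these 2 words differed detectably by the Wilson limits. The GATA word was in 3 of 47 windows (6.38%, 2.19 to 17.2%), against 23.7% of thresholded and 26.7% of ranked windows, both above that interval. The interval treats the windows as independent, though 18 came from 1 block and 7 others held the CCGTA repeat of 3R, so it may be too narrow. The median GC content of distant ranked peaks was 45.8%, lower than that of the absent ones, and its part in the count was not tested. For every other word counted, both shares fell inside the interval of the absent windows. Over the whole of the arms, 22 of 113 absent peaks were multi-copy (19.5%, 13.2 to 27.7%), against 24 of 3835 thresholded peaks (0.626%) and 2.47% of ranked peaks. Of the 46 multi-copy passing peaks 22 were absent, all on 2 arms, 15 of 18 on X and 7 of 16 on 3R. On the other arms with such peaks, 0 of 2 on 2L, 0 of 5 on 2R, 0 of 2 on 3L and 0 of 3 on Y were absent. The multi-copy share was 32.7% with 36-base words and 5.31% with 100-base words, against 0.834% and 0.130% of thresholded peaks, and 9.38% among absent arm peaks at a −log10 IDR of 3 or more.

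**Figure D5:**
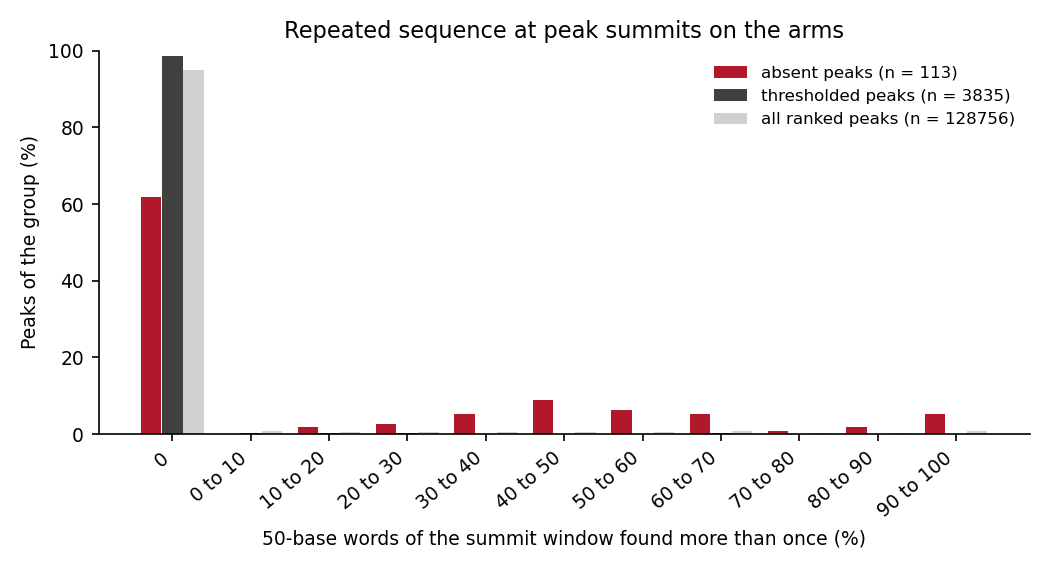
Percentage of arm peaks (y axis) by the percentage of 50-base words in the summit window that occur more than once in the genome (x axis, in steps of 10 with 0 apart), for absent (n = 113), thresholded (n = 3835) and all ranked peaks (n = 128756). Absent peaks spread over the whole axis, with 38.1% of them holding a repeated word against 1.36% of thresholded peaks.

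The proximal end of X held most of them. The last thresholded summit of X lay at 22833715, and 344 ranked summits lay past it, of which 30 passed and are absent by this choice of stretch. The 30 ran from 23227784 to 23532295, in an arm of 23542271 bp, and 18 formed a single block (23369985 to 23420120). Signal values there were modest, the highest being 189 pooled, with 66.8 in replicate 1 and 104 in replicate 2 (chrX:23377738-23378121). Of the 32 absent peaks of X, 31 had a repeated word (96.9%, 84.3 to 99.4%), with a median of 49.0% of words repeated. All 32 were distant from genes, and of the other distant peaks of X, 4 of 5 thresholded ones (80.0%) and 66.6% of all ranked ones also had a repeated word, with a median of 35.5% of words in the ranked ones. Words of 9 of the 32 were also on the ribosomal DNA scaffold, at least 50% of the words in 4 of them. No matching count is given here for thresholded or ranked peaks, so this is not shown to be particular to absent ones. Of the 113 arm members, 6 had a summit in an annotated transposon (5.31%), against 0.469% of thresholded peaks. All 6 lay beyond 50 kb from a protein-coding TSS, where the share was 12.8% of absent, 11.9% of thresholded and 8.45% of ranked peaks, so distant peaks of the lists differed little in it. Of the 6, 5 were on X, 3 in R1A1 elements and 2 in aurora. R1 elements are retrotransposons that insert into the 28S ribosomal RNA genes. The strongest R1A1 peak, chrX:22373266-22373649, had 178 pooled, 95.7 in replicate 1 and 80.8 in replicate 2, and the weakest aurora peak had 67.0, 25.6 and 62.8.

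On 3R the distant peaks marked a satellite. In 7 of the 9, the window held CCGTA 12 to 17 times on one strand, mostly 11 or 12 bases apart, which made up 46.7% and 34.8% of the 92 spacings. Tandem units of 11 or 12 bases with these letters are known on the third chromosome as the dodeca satellite. The search for short tandem units of 1 to 6 bases did not cover units of this length, and by it 0 of 113 absent peaks were tandem, which allows up to 2.65% by 3 counts of the total (Wilson upper limit 3.29%), against 0.365% of thresholded peaks. Windows with CCGTA at least 5 times, a cut chosen after seeing these sequences, made up 7 of 113 absent peaks (6.19%), 8 of 3835 thresholded peaks (0.209%) and 0.175% of ranked peaks. All 15 passing ones were distant peaks of 3R, 7 of the 9 absent and 8 of the 20 thresholded ones there. The 7 absent summits lay at 11477 to 28642, at 265846 and 266714 and at 505179, and the 8 thresholded summits lay interleaved with them, at 42370, at 173161 to 175002 and at 289754 to 320200. The absent ones had signal values of 79.0 to 228 and the thresholded ones 3.40 to 130, so the ranges overlapped. The strongest absent one, chr3R:265654-266037, had 228 pooled, 92.5 in replicate 1 and 125 in replicate 2. The other 2 distant 3R peaks, with summits at 3056797 and 3057826, held CCGTA 0 times.

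Off the arms, the 3 strongest absent peaks lay on unplaced scaffolds. A peak at 6148 to 6396 of scaffold Un_CP007100v1 had 1632 pooled, 912 in replicate 1 and 970 in replicate 2, and ranked 14 among passing peaks. On scaffold Un_CP007120v1, a peak at 73535 to 73748 had 1547, 675 and 891 and ranked 18. Another there, at 53167 to 53550, had 621, 276 and 341 and ranked only 143. All 3 were higher in replicate 2. The 67 unplaced peaks had a median of 90.7, and the 25 on Y scaffolds ran from 64.1 to 281 with a median of 116, against 103 for the 57 thresholded peaks on X scaffolds. Of gene families that exist in many copies on the arms (histone, ribosomal RNA, tRNA, snRNA, Stellate, Su(Ste), Hsp70 and chorion genes), none had an absent summit. Thresholded peaks lay at histone, tRNA and snRNA genes in 2, 5 and 1 cases of 3835, too few for a contrast with 113 absent peaks.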

How the data were processed

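Peak lists of 2 biological replicates of 1 group were used. Per the labels, chromatin was sheared to 200 to 800 bp, and the authors deposited, per the file headers, dm6-based ranked and thresholded peak lists per replicate and pooled. The headers name no aligner or caller. The deposited signal value is the authors' peak caller's own and was used to describe and rank peaks within a list. The authors deposited the −log10 of the IDR, which reaches 5. A replicate's value at a pooled peak is that of the strongest ranked peak of the replicate's list overlapping by at least 1 bp.

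Coordinates are 1-based. Sequence came from the RefSeq copy of dm6 and genes from the Ensembl annotation of the same assembly, for the 7 chromosome arms. The scripts used Python 3.11.15, numpy 2.4.6, pandas 2.3.3 and matplotlib 3.10.9, and the word, tandem and overlap measures were tested on simulated data. Peaks named were drawn from the 25 strongest arm members, the strongest of the 10 largest blocks, members in transposons and the 3 strongest off the arms. Not all of these are described. Those left out include, with pooled signal values, Nuak (263), CG6966 (258), CG1943 (240), CG12054 (223), lncRNA:Hsromega (206) and a crp intron (196). Peaks that share a satellite, the promoter genes and the −log10 IDR neighbours were added after their values were seen. Members and lists were chosen with earlier results of these data known, so no test was run and no p-value is given; the 95% Wilson intervals of shares reflect counting error alone and treat neighbouring peaks as independent, which they are not. Alternatives were other IDR limits, matching rules, single replicates, block gaps, word lengths and TSS distances.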

Additional observations from a re-analysis of the deposited data

How the results depend on the processing

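The number of absent peaks was 103 at a −log10 IDR of at least 3 and 40 at 4, and 129 to 140 with either replicate left out; matching by coordinates alone, by any overlap or by 50% reciprocal overlap gave 205 each, and the replicate pair list 213. The multi-copy share of the arm members, 19.5%, followed its definition: 32.7% with 36-base words, 5.31% with 100-base words, 38.1% where 10% of the words sufficed, 5.31% where 90% were needed, 31% over the whole peak, 9.38% at a −log10 IDR of at least 3, and 15.4 to 15.7% with either replicate left out. Thresholded peaks stayed lower under the same definitions, at 0.834%, 0.130%, 1.20%, 0.104% and 0.548% for the first 5. The TSS-proximal share, 30.1% against 41.5% of thresholded peaks, was 41.2% with 1 peak per block, 18.6% within 250 bp (thresholded peaks 32.0%) and 26.9 to 33.7% with either replicate left out. Blocks numbered 143 with a gap of 2000 bp and 108 with 50000 bp. With soft-masked sequence in place of repeated words and with protein-coding TSSs only, alternatives chosen after seeing the data, the shares were 24.8% and 28.3%. Restriction to the arms changed nothing in the sequence shares, which had no scaffold peaks. No paired analysis was possible because there was only 1 group. The number of peaks limits the precision, and the read depth was not known.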
